A study of Mus musculus with 32 samples.

Results

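Bidirectional promoters are short stretches of DNA from which a pair of genes is transcribed outwards, 1 on each strand. In the GENCODE M21 annotation of mm10, 754 such regions were found. A region was included when the outermost transcription start sites (TSS) of a minus-strand and a plus-strand protein-coding gene diverged and lay at most 1000 bp apart, and it was taken as the interval between the TSS with 500 bp added on each side. The pairs held 1487 of the 21938 protein-coding genes on chromosomes 1 to 19, X and Y, or 6.78%. They were compared with the 20451 protein-coding genes outside such pairs, each represented by its outermost TSS with 500 bp on each side. The spacing of the TSS ranged from 1 to 987 bp with a median of 129.5 bp, and 618 pairs, or 82%, were at most 300 bp apart. The pairs are not wholly independent, since 21 genes belonged to more than 1 pair and 42 pair regions overlapped another. Pairs of genes whose outermost TSS cross each other, so that the first bases of both genes overlap, were not taken as diverging and were counted among the other promoters.

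The histone marks were measured by ChIP-seq in primary leukemias of mice, in which lineage-depleted bone marrow cells were transduced with a retrovirus carrying the *MLL-AF9* fusion gene and transplanted into irradiated recipients. *Kat2a* KO cells came from *Kat2a* Fl/Fl *Mx1-Cre*-positive donors and *Kat2a* WT cells from *Kat2a* Fl/Fl donors without *Mx1-Cre*, and donors of both genotypes had received pIpC, which switches on the *Mx1* promoter that drives Cre. Bone marrow of terminally ill recipients was pooled from 5 animals for WT and from 4 for KO, with 500000 cells used per condition for H3K27ac and H3K4me1 and 5000000 for H3K9ac and H3K4me3. Each mark was measured in 2 replicates per genotype, which are separate cell samples of the same pools, so the spread between them holds no difference between animals. According to the study's methods, the excised *Kat2a* allele still gives an in-frame product without acetyltransferase activity. A peak of such bulk material cannot tell fewer cells with a mark from less of the mark in each cell.

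A bidirectional promoter usually has a nucleosome-free centre that serves both genes, and in mammals many of them are CpG-rich, lack a TATA box and drive housekeeping genes of DNA repair, mitochondria and RNA metabolism. H3K4me3 is found on the first nucleosomes of active and poised promoters, and H3K9ac, which Kat2a (also known as Gcn5) lays down, and H3K27ac on those of active promoters. H3K4me1 is a mark of enhancers and of the shoulders of promoters, and is low where H3K4me3 is high.

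The sequence between the TSS is printed for 7 pairs that return below. *Brca1*/*Nbr1* and *Mrps12*/*Sars2* are textbook examples. *Dido1*/*Gid8* and *Rgl1*/*Arpc5* had the strongest H3K4me3 and the strongest H3K9ac of all pairs, *Hist1h2ag*/*Hist1h2bj* and *Ifit1bl2*/*Ifit1* differed in peaks between the genotypes, and *Sgce*/*Peg10* had neither H3K4me3 nor H3K9ac. Each sequence was read from RefSeq's copy of GRCm38, the assembly of mm10, and is the plus strand from the TSS of the minus-strand gene to that of the plus-strand gene. Capitals mark matches, on either strand, to the motifs of ETS factors (CCGGAAG), NRF1 (GCATGCGC), NF-Y (CCAAT, which reads ATTGG on the other strand), SP factors (GGGCGG, the GC box), the TATA box (TATAAA), the E-box (CACGTG) and YY1 (AAGATGGCG).
Brca1/Nbr1: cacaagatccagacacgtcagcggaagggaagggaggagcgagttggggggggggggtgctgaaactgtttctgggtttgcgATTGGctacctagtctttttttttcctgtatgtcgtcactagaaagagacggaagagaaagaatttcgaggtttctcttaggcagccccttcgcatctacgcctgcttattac
Mrps12/Sars2: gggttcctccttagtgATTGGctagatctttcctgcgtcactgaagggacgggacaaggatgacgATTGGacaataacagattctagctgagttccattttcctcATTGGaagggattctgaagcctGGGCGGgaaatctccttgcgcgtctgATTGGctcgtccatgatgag
Dido1/Gid8: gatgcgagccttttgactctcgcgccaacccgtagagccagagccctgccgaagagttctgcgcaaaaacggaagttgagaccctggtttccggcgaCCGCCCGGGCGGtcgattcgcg
Rgl1/Arpc5: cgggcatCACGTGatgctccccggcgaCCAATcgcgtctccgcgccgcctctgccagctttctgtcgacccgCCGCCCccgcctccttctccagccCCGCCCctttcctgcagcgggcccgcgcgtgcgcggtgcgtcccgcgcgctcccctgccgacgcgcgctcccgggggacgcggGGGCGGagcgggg
Hist1h2ag/Hist1h2bj: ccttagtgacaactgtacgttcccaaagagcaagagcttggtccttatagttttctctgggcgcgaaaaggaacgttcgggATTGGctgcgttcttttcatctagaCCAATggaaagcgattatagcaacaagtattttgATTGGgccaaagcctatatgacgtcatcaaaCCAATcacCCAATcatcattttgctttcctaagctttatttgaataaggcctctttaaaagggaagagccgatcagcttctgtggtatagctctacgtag
Ifit1bl2/Ifit1: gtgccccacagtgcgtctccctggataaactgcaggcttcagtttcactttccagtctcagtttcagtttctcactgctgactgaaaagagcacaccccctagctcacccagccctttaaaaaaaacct
Sgce/Peg10: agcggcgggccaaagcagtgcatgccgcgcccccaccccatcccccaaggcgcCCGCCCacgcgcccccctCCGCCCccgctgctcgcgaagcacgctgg
These intervals lie at chr11:101551955-101552149, chr7:28741820-28741992, chr2:180709999-180710117, chr1:152766351-152766542, chr13:22042944-22043214, chr19:34640743-34640871 and chr6:4747207-4747306. *Mrps12*/*Sars2* held 4 CCAAT boxes and 1 GC box within 173 bp. *Hist1h2ag*/*Hist1h2bj* held 5 CCAAT boxes and no other match. *Rgl1*/*Arpc5* had 33 CpG dinucleotides in 192 bp and 3 GC boxes, *Sgce*/*Peg10* had 13 in 100 bp and 2 GC boxes, and *Ifit1bl2*/*Ifit1* had 1 in 129 bp and no match to any of the motifs.

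In base composition the pairs stood apart from other promoters. A centre was called CpG-rich when the 500 bp on each side of the midpoint (of the TSS, for other promoters) had a GC content of at least 55% and an observed-to-expected CpG ratio of at least 0.6. This held for 552 pairs, 73.2% (95% Wilson interval 69.9 to 76.2), against 35.9% of other promoters. It was not particular to the diverging pairs. Of the 446 pairs with crossed TSS 74.9% were CpG-rich. Of protein-coding genes that diverge from a non-coding gene within 1000 bp 65% were. In the 300 bp around the centre, the ETS motif was found in 28% of pairs, in 10.4% of other promoters and in 17.1% of CpG-rich other promoters. The YY1 motif was found in 5.84%, 1.98% and 3.84% of the same 3 classes, and CCAAT in 44.8%, 36.2% and 32.2%. The TATA motif was rarer in pairs, 4.38%, than in other promoters, 11.2%, but CpG-rich other promoters held it in 3.54%. The GC box was more frequent in pairs (68%) than in all other promoters (43.9%) and less frequent than in CpG-rich ones (79.7%). The motif of NRF1 was found in 6.5% of pairs, 3.03% of other promoters and 5.61% of CpG-rich ones, and the E-box in 10.7%, 7.16% and 10.3%. Among the CpG-rich pairs alone, ETS was found in 31.3%, CCAAT in 43.8% and YY1 in 6.34%. These 3 motifs thus separated CpG-rich pairs also from CpG-rich other promoters, with Wilson intervals that did not overlap. The GC box was found in 75.5% of CpG-rich pairs and the TATA motif in 2.9%, with intervals that overlapped those of CpG-rich other promoters.

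**Figure D1:**
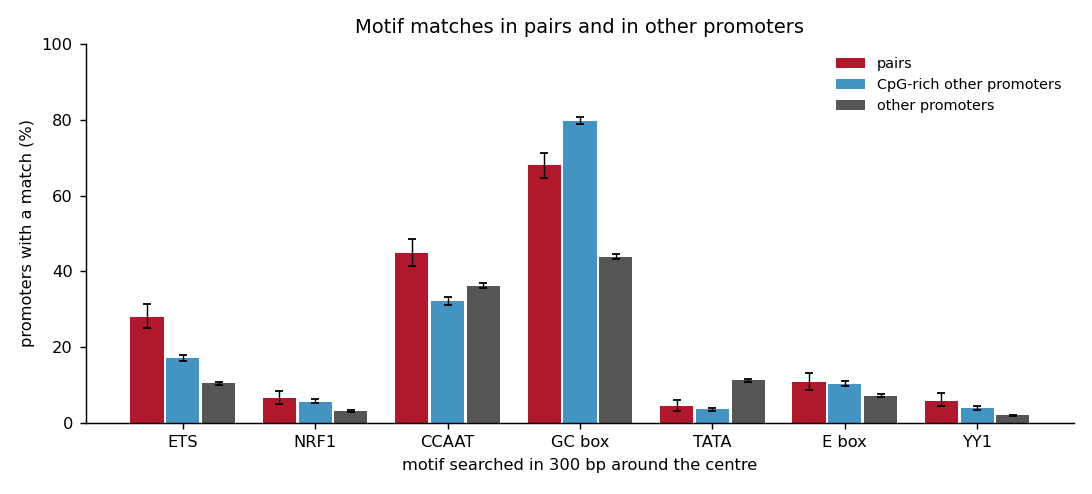
Share of promoters (%) with a match to each motif in the 300 bp around the centre, for the 754 pairs, the 7339 CpG-rich other promoters and all 20451 other promoters. Bars are percentages with 95% Wilson intervals, and the ETS motif is at 28% of pairs against 17.1% and 10.4%.

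The peak lists differed in length. They held 15685 to 23297 peaks for H3K4me3 and 27657 to 33605 for H3K9ac, with WT H3K4me3 replicate 2 the shortest. For H3K27ac and H3K4me1 replicate 2 was used, with 29757 and 46047 H3K27ac peaks and 45770 and 78042 H3K4me1 peaks in WT and KO. The *Kat2a* promoter, which lies outside the pairs, carried H3K9ac in all 4 libraries, and as it lies outside the excised part this is no check of the genotype. Of 10 myeloid marker genes, 7 had H3K9ac and 5 had H3K4me3 at the outermost TSS in all 4 libraries, and *Csf1r* had neither. The 5 T cell and the 5 B cell markers had neither H3K4me3 nor H3K9ac in any library. No erythroid marker of 5 had either mark in all 4 libraries, though each mark was found at up to 2 of them in a library. Of the 5 genes listed for stroma and endothelium, *Pecam1* and *Pdgfrb* had H3K9ac in all 4 libraries. *Col1a1*, *Col3a1* and *Cdh5* had neither mark in any.

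To ask how often the pairs carried active marks, the share of regions overlapped by a peak was taken in each library. H3K4me3 covered 93.1% and 88.7% of pairs in the WT libraries and 91.1% and 91.8% in the KO libraries. Other promoters were covered in 48%, 40.6%, 43.9% and 45.2%. H3K9ac covered 92.6% and 92.2% of pairs in WT and 92% and 92.4% in KO, and 44.1% to 47.1% of other promoters. The classes did not overlap in any library. The pairs exceeded other promoters by 46.7 percentage points for H3K4me3 (91.2% ± 1.8 against 44.5% ± 3.1, SD, n = 4 libraries) and by 46.9 for H3K9ac (92.3% ± 0.24 against 45.4% ± 1.3). With 4 libraries the exact two-sided sign-flip test can go no lower than p = 0.13, and it gave this value for both marks.

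Part of this difference went with CpG content. Among CpG-rich regions alone, 96.6% of pairs and 81.6% of other promoters carried H3K4me3, a difference of 15 points, and 97.3% and 79.1% carried H3K9ac, a difference of 18.2 points (both exact p = 0.13). Protein-coding genes that diverge from a non-coding gene within 1000 bp were intermediate, with H3K4me3 in 71.4% ± 3.2 and H3K9ac in 71% ± 1.1. The 446 pairs with crossed TSS resembled the diverging pairs, with 90.3% for H3K4me3 (exact p = 0.25) and 90% for H3K9ac (exact p = 0.13, with a difference of 2.34 points).

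H3K27ac covered 85.4% of pairs in WT (Wilson interval 82.7 to 87.8) and 91% in KO (88.7 to 92.8), against 37.1% and 42.4% of other promoters. H3K4me1 was found at fewer pairs than the other marks, with 8.22% (6.47 to 10.4) in WT and 30.5% in KO. At other promoters it covered 7.55% and 20.6%. Since pair regions are wider than other promoters by their spacing, the H3K4me1 shares were also taken over equal windows of 500 bp on each side of the midpoint. They were then 5.84% in WT, below other promoters, and 23.9% in KO, above them, so no direction held in both libraries. With 1 library per genotype for these marks there is no replicate check and no test, and the intervals cover counting error only.

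**Figure D2:**
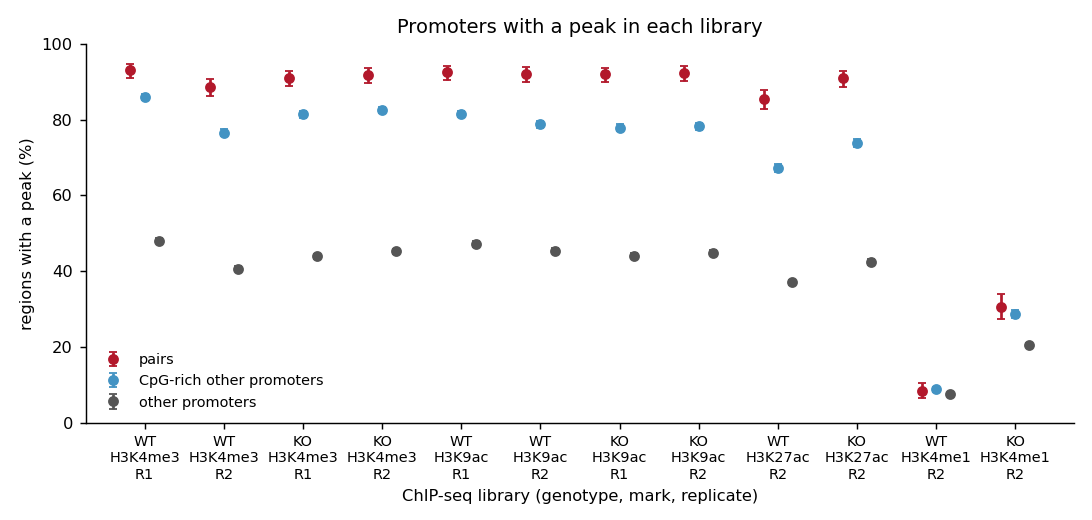
Share of regions (%) with a peak in each of the 12 libraries, for the pairs, CpG-rich other promoters and all other promoters, with 95% Wilson intervals. The pairs sit between 85.4% and 93.1% for H3K4me3, H3K9ac and H3K27ac, above both other classes in each library, and at 8.22% and 30.5% for H3K4me1.

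The peaks at pairs were also stronger and wider. The strength is the largest fold enrichment over background that the authors' peak caller gave to a peak in the region. The median over marked pairs was 9.76 and 6.44 in WT and 6.67 and 8.29 in KO for H3K4me3, against 8.34, 5.7, 5.95 and 7.23 at marked other promoters. For H3K9ac it was 12.9 and 12.6 in WT and 10.9 and 13 in KO, against 10.3, 10.8, 9.32 and 11.3. The log2 of the median was higher at pairs by 0.19 for H3K4me3 and by 0.25 for H3K9ac, in 4 of 4 libraries each (exact p = 0.13). Within CpG-rich regions the differences were 0.14 and 0.13. The median H3K4me3 peak was 178 bp wider at pairs than at other promoters (1020 ± 261 bp against 842 ± 157 bp, SD, n = 4), and the median H3K9ac peak 356 bp wider (1530 ± 144 bp against 1174 ± 94 bp, both exact p = 0.13). Pair regions are wider, so the largest peak was taken over more DNA. Pairs with crossed TSS were about as strong or stronger, and wider. Pairs minus crossed pairs gave log2 differences of 0.00013 for H3K4me3 and -0.1 for H3K9ac. The median widths differed by -76.6 and -59.25 bp (exact p = 0.13 for both widths and for H3K9ac strength). Against genes with a non-coding partner the log2 differences were 0.12 and 0.05 (exact p = 0.13 and 0.25).

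The marks lay on both genes of a pair with a dip between them. At the midpoint H3K4me3 peaks covered 69.1% and 43.9% of marked pairs in WT and 52.1% and 65.9% in KO. At 250 bp on the side of the minus-strand gene they covered 87.2%, 75.6%, 80.5% and 86.8%, and at 250 bp on the side of the plus-strand gene 86.6%, 76.4%, 83.4% and 86.4%. Other promoters were covered at 250 bp upstream of the TSS in 32.2% to 51.5% and at 250 bp downstream in 81.6% to 89.1%. The pairs were thus nearly symmetric where other promoters were covered more often downstream. H3K9ac showed a shallower dip, with 73.3% to 82.4% at the midpoint and 89.8% to 92.7% at 250 bp on either side. Other promoters were less lopsided for H3K9ac, with 53.7% to 61.1% at 250 bp upstream and 91% to 92.2% at 250 bp downstream. H3K4me1 was nearly absent from the centre, at 3.23% of the 62 pairs with a peak in WT and 3.91% of the 230 in KO.

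**Figure D3:**
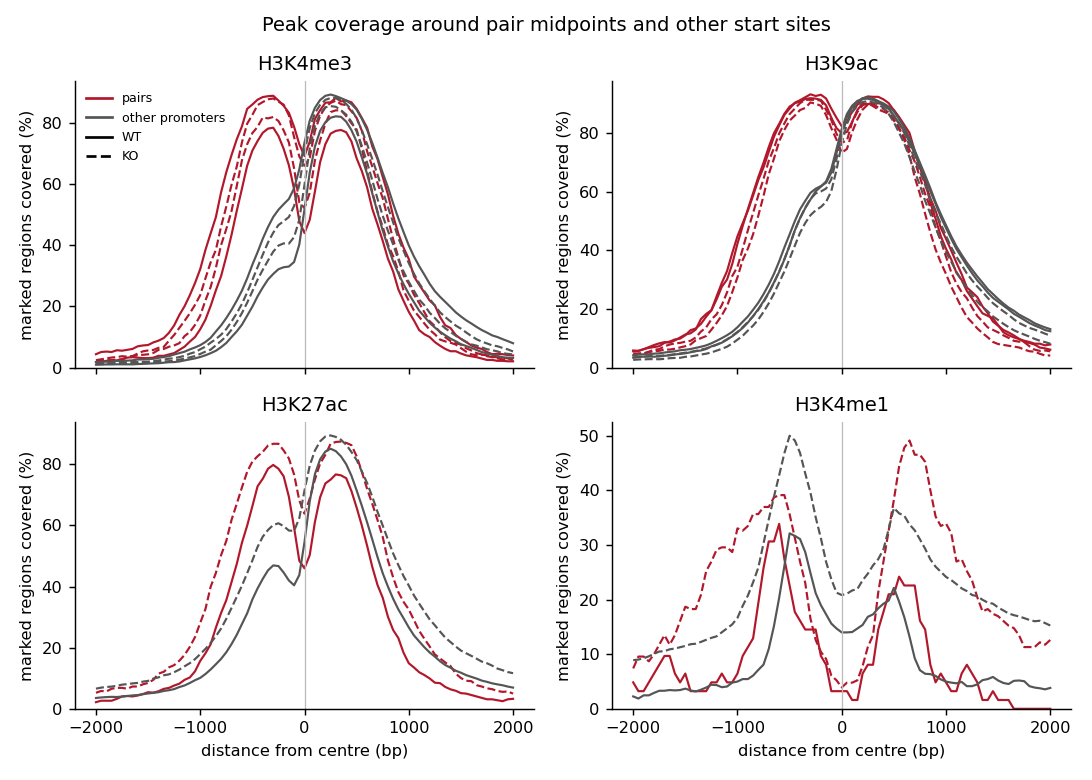
Share of marked regions (%) covered by a peak against the distance from the midpoint of a pair or from the TSS of another promoter (bp, other promoters with the gene to the right, pairs with the plus-strand gene to the right), 1 line per library. H3K4me3, H3K9ac and H3K27ac are high on both sides at pairs and higher downstream than upstream at other promoters. H3K4me1 at pairs dips to 3.23% and 3.91% at the centre.

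Counted per region, a peak was said to reach a flank when it covered at least 250 of the first 500 bp. H3K4me3 reached both genes in 81.5% and 63.4% of marked pairs in WT and 73.7% and 79.5% in KO, against 26.8% to 48.3% of other promoters for the upstream and downstream flanks. The means were 74.5% ± 8.1 and 38.4% ± 9.4 (SD, n = 4, exact p = 0.13). H3K9ac reached both genes in 85.1% ± 2 of marked pairs and both flanks in 56.6% ± 3.6 of other promoters (exact p = 0.13). Against CpG-rich other promoters the differences were 29.1 points for H3K4me3 and 19.9 for H3K9ac. When 1 gene alone was reached, it was the minus-strand gene in 8.55% to 17.5% of marked pairs for H3K4me3 and the plus-strand gene in 7.55% to 15.5%, with no strand in front in all 4 libraries.

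The summit of the strongest peak fell inside 1 of the genes in 96.5% to 97.8% of marked pairs for H3K4me3 and in 95.4% to 96% for H3K9ac, and otherwise between the TSS. It was about evenly shared, with 46.7% to 49.6% in the minus-strand gene for H3K4me3 and 46.3% to 48.6% for H3K9ac. Its median distance from the nearest TSS was 250 to 263 bp for H3K4me3 and 230 to 243 bp for H3K9ac. H3K4me1 summits lay further in, at 473.5 bp in WT and 518 bp in KO. At other promoters the summit was downstream of the TSS in 86.6% ± 0.35 for H3K4me3 and 86.4% ± 0.76 for H3K9ac (SD, n = 4 libraries). The pairs exceeded this by 10.4 and 9.24 points (exact two-sided sign-flip p = 0.13 for both marks, the smallest possible). By the geometry of a pair a summit outside the interval is always inside a gene, which is not so at other promoters.

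A single peak over both TSS was found in 58.4% and 33.2% of H3K4me3-marked pairs in WT and in 40.2% and 54.6% in KO. For H3K9ac this was 75.4% and 70.2% in WT and 63.7% and 66.7% in KO. The H3K4me3 values spread as widely within a genotype as between them, and they stood in the same order as the length of DNA that the lists covered, 18.7 and 10 Mb in WT and 13 and 14.8 Mb in KO. The H3K9ac lists covered 26.8 and 28.9 Mb in WT and 20.7 and 24.7 Mb in KO, and the part of the covered length was not tested. When every list was cut to the same number of peaks, the mean share was 46.9% in place of 46.6% for H3K4me3 and 69.1% in place of 69% for H3K9ac. Separate peaks on both TSS were found in 5.98% to 9.69% of marked pairs for H3K4me3. In 10.7% to 31.8% of them the peaks covered neither TSS, and in the rest 1 TSS only. For H3K9ac neither TSS was covered in 5.47% to 9.22%. Separate H3K4me3 peaks occurred in all 4 libraries at 2 pairs only, *Prr11*/*Ska2* (526 bp apart) and *Hmmr*/*Nudcd2* (245 bp), both of which hold a gene of mitosis. For H3K9ac 15 pairs had separate peaks in all 4 libraries, among them *Wrn*/*Purg*, with the helicase of Werner syndrome, and *Xrcc3*/*Zfyve21*, with a recombination gene. These pairs were named after their values were seen.

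The share with a single peak over both TSS differed with the spacing more than the share with any peak did. Part of this is built into the measure, since a peak over both TSS must be at least as long as their spacing. Of the 312 pairs at most 100 bp apart, 92.6% to 96.2% carried H3K4me3 and 94.9% to 95.5% H3K9ac. Of the 66 pairs 301 to 500 bp apart the shares were 90.9% to 93.9% and 92.4% to 93.9%. Of the 70 pairs 501 to 1000 bp apart they were 72.9% to 81.4% and 80% to 84.3%. CpG-rich centres made up 40% of these pairs, against 76.9% of the closest. The CpG window, 500 bp on each side of the midpoint, holds less of both genes at wide spacing. These CpG shares thus cover unlike stretches. A single H3K9ac peak covered both TSS in 79.8% to 89.9% of the marked pairs at most 100 bp apart and in 36.8% to 51.8% of those 501 to 1000 bp apart. For H3K4me3 the same shares were 47.1% to 77.3% and 14.5% to 26.3%. The fall was not steady, as the shares of both marks were higher at 301 to 500 bp than at 201 to 300 bp in every library. Just beyond the limit of the rule, 101 pairs 1001 to 2000 bp apart carried H3K4me3 in 61.4% to 72.3% and H3K9ac in 67.3% to 72.3%, over wider regions.

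**Figure D4:**
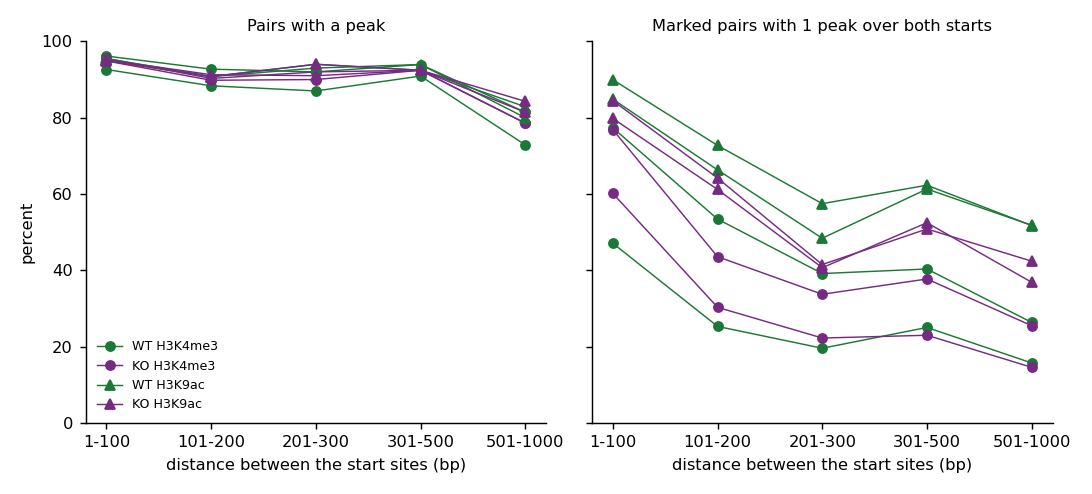
Left, share of pairs (%) with a peak, and right, share of marked pairs (%) with 1 peak over both TSS, by the distance between the TSS (bp), 1 line for each of the 4 H3K4me3 and 4 H3K9ac libraries. The presence of a peak stays at or above 87% up to 500 bp in every library shown. From the closest to the widest pairs, the share with 1 peak goes from up to 89.9% to as little as 36.8% for H3K9ac. For H3K4me3 it goes from up to 77.3% to as little as 14.5%. The fall is not steady, and both marks are higher at 301 to 500 bp than at 201 to 300 bp in every library. A peak over both TSS must be at least as long as the distance, so a fall is built into the right panel.

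H3K4me3 was found in all 4 libraries at 660 pairs and H3K9ac at 689, and 655 pairs (86.9%) carried both marks in all 8 libraries, against 37.2% of other promoters. Neither mark was found in any library at 45 pairs (5.97%) and at 48% of other promoters. Of these 45 pairs, 20% were CpG-rich, against 78% of the 655. H3K27ac was found at 1 of them in KO and at none in WT, and H3K4me1 at 2 in each genotype. The unmarked pairs include the imprinted pairs *Sgce*/*Peg10*, whose GC boxes are printed above, and *Peg3*/*Usp29*, and pairs that hold a germ-cell gene, such as *Smc1b*/*Ribc2*, *Patl2*/*Terb2* and *Dgcr2*/*Tssk2*. They also include the basement membrane collagens *Col4a4*/*Col4a3*, the thyroid oxidase pair *Duox2*/*Duoxa2* and the podocyte genes *Kirrel2*/*Nphs1*. The ribosomal protein gene *Rps2*, paired with *Rnf151*, was among them as well. Only outermost annotated TSS were used, and a mark at an inner TSS is not counted. The pairs named here were chosen after their values were seen.

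To ask whether the loss of *Kat2a* changed the marks at the pairs, shares, single pairs and peak strength were compared between the genotypes. The share of pairs with H3K9ac was 92.4% ± 0.28 in WT and 92.2% ± 0.28 in KO (SD, n = 2), a difference of -0.13 points (exact permutation p = 0.67). For H3K4me3 it was 90.9% ± 3.1 and 91.4% ± 0.47, a difference of 0.53 points (exact permutation p = 1). With 2 libraries against 2 the test can go no lower than 0.33. The difference between pairs and other promoters in H3K9ac was 46.1 points in WT and 47.8 in KO (exact permutation p = 0.33).

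Single pairs that switched were few. A peak in both WT and neither KO library was found at 1 pair for H3K4me3 and at 1 for H3K9ac, and the reverse at 1 pair for each mark, or 0.133% of pairs each time. Over all 21205 promoter regions the percentages were 0.325% and 0.207% for H3K4me3 lost and gained, and 0.637% and 0.16% for H3K9ac lost and gained, so the shares of pairs were not above the background. The count of pairs was 0 under at least 1 other way of taking peaks or windows for H3K4me3 gained, H3K9ac lost and H3K9ac gained, and was never 0 for H3K4me3 lost. The H3K4me3 peak lost in KO was at *4921536K21Rik*/*Dusp18*, with a fold enrichment of 3.95 and 3.45 in WT. *Dusp18* encodes a dual-specificity phosphatase. Its H3K9ac was 6.29 and 8.97 in WT and 9.13 and 7.53 in KO, so acetylation was present in every library.

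The H3K4me3 peak gained in KO was at the histone pair *Hist1h2ag*/*Hist1h2bj*, with 3.6 and 3.57, whose H3K9ac was 5.64 and 5.21 in WT and 6.14 and 6.99 in KO. H3K27ac there had no peak in WT and 7.24 in KO. The lost H3K9ac peak was at *Ifit1bl2*/*Ifit1*, genes of the interferon response, with 3.22 and 1.87 in WT. H3K4me3 at this pair had a peak in WT replicate 1 alone, at 3.28, and H3K27ac and H3K4me1 had peaks in KO, at 2.91 and 3.5. The gained H3K9ac peak was at *Acvr1*/*Upp2*, which holds an activin receptor and a uridine phosphorylase, with 2.77 and 4.94 in KO. H3K4me3 there was between 4.82 and 6.27 in all 4 libraries. The H3K4me3 and H3K9ac values in these 3 pairs were below the medians of the pairs, whose mean over the 4 libraries had a median of 8.19 for H3K4me3 and 12.8 for H3K9ac.

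Peak strength was tested with limma on the log2 fold enrichment, centred on the median of each library, over all promoter regions with a peak in all 4 libraries. No region passed an adjusted p of 0.05 in either direction, 0 of 8586 for H3K4me3 and 0 of 9286 for H3K9ac, or 0% each, and hence no pair. At an unadjusted p under 0.05 limma listed 33 of the 660 pairs for H3K4me3, among 453 of all regions, and 18 of the 689 for H3K9ac, among 347. The median log2 difference, KO against WT, was 0.02 over the pairs for both marks and 0.01 over all regions tested. The pairs with the smallest p, none called, were *Pde6d*/*Cops7b*, *Cct6b*/*Zfp830* and *Atp5c1*/*Kin* for H3K4me3. At *Pde6d*/*Cops7b*, which holds a subunit gene of the COP9 signalosome, H3K4me3 was 9.61 and 2.72 in WT and 11.5 and 13.2 in KO, a log2 difference of 1.33 with an SE of 0.39 and a limma adjusted p of 0.89. The 2 WT values differed more from each other than the higher of them from KO. For H3K9ac they were *Zcchc3*/*6820408C15Rik* (log2 difference 1.05), *Mdh1b*/*Fastkd2* (-1.01) and *2810408A11Rik*/*Neurl4* (0.95), each with a limma adjusted p of 0.9997. At *Mdh1b*/*Fastkd2*, where *Fastkd2* encodes a mitochondrial RNA-binding protein, H3K9ac was 8 and 7.16 in WT and 4.26 and 2.93 in KO.

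Before centring, the H3K9ac fold enrichment of both KO libraries was below that of both WT libraries at 160 of the 689 pairs (23.2%), where all regions tested gave 18.9%, and above it at 69 pairs (10%), where all regions gave 10.4%. For H3K4me3 it was below at 93 of the 660 pairs (14.1%, against 13.7% of all regions) and above at 61 (9.24%, against 9%). Without centring the median log2 difference in H3K9ac was -0.08 over the pairs and also over all regions. H3K4me3 and H3K9ac values of single pairs are given as deposited, and no difference between genotypes at a tested pair passed limma's test.

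**Figure D5:**
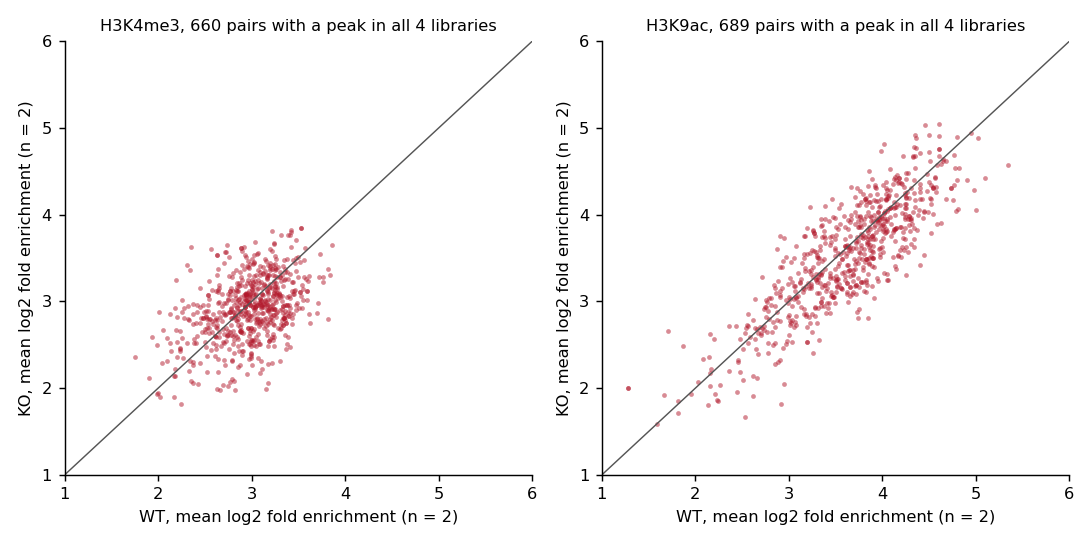
Mean log2 fold enrichment of H3K4me3 (left, 660 pairs) and H3K9ac (right, 689 pairs) in KO against WT, 1 point per pair with a peak in all 4 libraries, with the line of equality. The points lie along the line in both panels without a group set apart, and no pair passed the test.

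H3K9ac peaks at the pairs had a median width of 1654 and 1647 bp in WT and 1363.5 and 1454 bp in KO. The genotypes did not overlap and the difference was -242 bp (1650 ± 4.9 bp against 1409 ± 64 bp, SD, n = 2, exact permutation p = 0.33, the smallest possible). Other promoters also had narrower peaks in both KO libraries, at 1049 and 1156 bp against 1228 and 1262.5 bp in WT, and the excess of the pairs over them was 405 bp in WT and 306 bp in KO (exact permutation p = 0.33). The H3K9ac lists were shorter in KO as well, and their part in the width was not tested. H3K4me3 peaks at pairs were 1313.5 and 741 bp wide in WT and 872 and 1154.5 bp in KO, which overlapped.

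H3K27ac was found at 5.57 percentage points more pairs in KO than in WT and at 5.34 points more other promoters. A peak in KO alone was found at 42 pairs, 5.57%, where all promoter regions gave 5.74%, and a peak in WT alone at 0 pairs, where all regions gave 0.387%. The 42 are led by *Zfp277*/*Dock4* (7.53), *Gm28635*/*Med19* (7.28) and *Hist1h2ag*/*Hist1h2bj* (7.24). *Med19* encodes a subunit of Mediator. The KO list was longer, and with lists of equal length the difference at pairs was 2.79 points. With both replicates the direction turned, to -7.83 points, as replicate 1 had a peak at 161 pairs in WT and at 1 in KO. H3K4me1 was found at 62 pairs in WT and at 230 in KO, with a peak in KO alone at 191 pairs, 25.3%, against 16.5% of all promoter regions, and in WT alone at 23 pairs, 3.05%, against 3.12%. With lists of equal length the difference was 10.6 points in place of 22.3. The strongest of these H3K4me1 peaks were at *Mau2*/*Sugp1* (6.68), with the cohesin loader *Mau2*, and at *Urod*/*Hectd3* (6.02), with the heme enzyme *Urod*. These differences rest on 1 library per genotype.

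Of the pairs with H3K4me3 in both replicates, most carried both acetylations. In WT these were 631 of 669 pairs, 94.3%, while 34, 5.08% (Wilson interval 3.66 to 7.02), carried H3K9ac without H3K27ac and none carried H3K27ac alone. In KO 667 of 682 pairs, 97.8%, carried both and 8, 1.17%, carried H3K9ac without H3K27ac. Among other promoters with H3K4me3, H3K9ac without H3K27ac was found in 12.9% in WT and 4.31% in KO. With H3K27ac lists of equal length, the KO shares were 3.23% of pairs and 7.6% of other promoters. In both genotypes the state was rarer at pairs. This was not tested, as H3K27ac came from 1 library each.

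By function, the pairs drew on some gene groups more than on others. Over all protein-coding genes 6.78% were in a pair. Of 71 canonical histone genes 27 were, or 38%, of 124 DNA repair and replication genes 27 (21.8%), of 240 genes of mitochondria 51 (21.2%) and of 349 genes of RNA processing and translation 60 (17.2%). Of 339 developmental and lineage genes 5 were in a pair (1.47%), and of 43 leukemia and hematopoietic genes 1 (2.33%). These lists were drawn up by gene symbol, and no test was made. Of the textbook pairs looked for, *Hspd1*/*Hspe1*, *Surf1*/*Surf2*, *Tk1*/*Afmid* and *Col4a1*/*Col4a2* did not meet the rule at their outermost TSS.

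The DNA repair and replication genes gave 25 pairs, of which 23 carried H3K4me3 and 25 H3K9ac in all 4 libraries. *Brca1*/*Nbr1*, which joins the tumor suppressor of homologous recombination to an autophagy receptor, had an H3K9ac fold enrichment of 24.8 and 24.7 in WT and 13.1 and 17.1 in KO, the highest mean of the group. WT was higher in every library, and the pair did not pass limma's test, as no region did. Its centre is not CpG-rich by the rule used here. *Rad51c*/*Tex14*, with a gene of homologous recombination, had 19.7 and 9.3 in WT and 21.4 and 17.6 in KO, and the genotypes overlapped. *Atm*/*Npat*, which joins the DNA damage kinase to a coactivator of histone genes, had 14.5 and 9.52 in WT and 14.3 and 21.2 in KO. *Mcm4*/*Prkdc*, with a helicase subunit and the DNA-PK catalytic subunit, had 16.5 and 10 in WT and 10.9 and 6.83 in KO. H3K4me1 had a peak at 2 of the 25 pairs in WT and at 6 in KO. The textbook pair *Gart*/*Son* is outside this list and joins a purine synthesis enzyme to a splicing cofactor. Its H3K9ac was 21.7 and 24.9 in WT and 17.3 and 23.1 in KO.

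The genes of mitochondria gave 50 pairs, 49 with H3K4me3 and 50 with H3K9ac in all 4 libraries. *Mrps12*/*Sars2*, a mitochondrial ribosomal protein and the mitochondrial seryl-tRNA synthetase, had H3K9ac of 17.6 and 21.8 in WT and 12.2 and 16.3 in KO, and H3K4me3 of 11 and 6.22 in WT and 4.07 and 7.77 in KO. The highest mean H3K9ac of the group was at *Gm27021*/*Cox4i1*, *Mrps18b*/*Ppp1r10* and *Atp5c1*/*Kin*. *Gm27021*/*Cox4i1*, with a subunit of cytochrome c oxidase, had 15.8 and 22 in WT and 20.5 and 32.2 in KO. *Mrps18b*/*Ppp1r10*, with a mitochondrial ribosomal protein, had 26.3 and 29 in WT and 14.9 and 18.2 in KO. *Atp5c1*/*Kin*, with a subunit of ATP synthase, had 13.1 and 24.3 in WT and 24 and 20.2 in KO. The RNA processing and translation genes gave 60 pairs, 58 with each mark in all 4 libraries. H3K9ac was highest at *Rpl9*/*Lias*, with 26.9 and 27.6 in WT and 25 and 26.7 in KO, *Rps27*/*Rab13*, with 30 and 26 in WT and 24.7 and 18 in KO, and *Srsf11*/*Lrrc40*, with 28.7 and 14 in WT and 28.6 and 22.4 in KO.

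The histone genes gave 14 pairs, mostly of an H2A with an H2B gene. H3K9ac was found in all 4 libraries at 11 of them and H3K4me3 at 4. The median over their mean H3K9ac was 5.91, against 12.8 over all pairs. *Hist2h2ac*/*Hist2h2be* and its neighbour *Bola1*/*Hist2h2ab*, which lie under the same H3K9ac peaks, had 12.2 and 19.7 in WT and 16.6 and 16.2 in KO. *Hist1h2ap*/*Hist1h2br*, *Hist1h2bq*/*Hist1h2ao* and the testis pair *Hist1h2ba*/*Hist1h2aa* had no peak of any mark. Histone genes are near-identical copies, and reads that fit several of them cannot be placed, so these values are uncertain. The developmental genes gave 4 pairs, with both marks at *Rhno1*/*Foxm1*, which holds a cell cycle factor, and *Foxa3*/*Sympk*, and with neither at *Col4a4*/*Col4a3* and *Sox6*/*1110004F10Rik*. The 1 pair of the leukemia list was *Cebpz*/*Ndufaf7*, in which *Cebpz* is a nucleolar factor in spite of its name. Its H3K9ac was 23 and 17 in WT and 17.4 and 13.6 in KO.

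The strongest pairs were of mixed function. H3K9ac was highest at *Rgl1*/*Arpc5*, with a subunit of the Arp2/3 complex, which had 45.5 and 36.1 in WT and 21.9 and 26 in KO. It was followed by *Cdc27*/*Myl4*, with a subunit of the anaphase-promoting complex and 35.6 and 29.8 in WT and 28 and 31.1 in KO, and by *Baz2b*/*March7*, *Zbtb25*/*Zbtb1* and *Hnrnpd*/*4930524J08Rik*. *Zbtb25*/*Zbtb1* had 20.9 and 28.5 in WT and 27.6 and 39.9 in KO. H3K4me3 was highest at *Dido1*/*Gid8*, with 18.4 and 11.5 in WT and 10.8 and 14.6 in KO, followed by *Arl16*/*Hgs*, which the annotation lists with 2 gene entries named *Hgs*, *Thap2*/*Zfc3h1*, *Exoc8*/*Sprtn* and *Dram1*/*Gnptab*. The highest mean was 13.8 for H3K4me3 and 32.4 for H3K9ac, and their lowest were 3.94 and 3.01. No pair was among the first 5 for both marks.

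Pairs with an ETS motif were marked more often than pairs without it. Of the 211 pairs with a match, 97.2% to 99.1% carried H3K4me3 and 99.1% carried H3K9ac in each library, against 85.5% to 90.8% and 89.3% to 90.1% of the 543 pairs without. Median fold enrichment of the marked pairs is given for WT replicates 1 and 2 and KO replicates 1 and 2, in this order. For H3K9ac it was 13.3, 12.9, 10.9 and 13 with the ETS motif and 12.9, 12.4, 11 and 13 without. H3K9ac strength thus went little with the match. For H3K4me3 it was 9.94, 6.69, 7.27 and 8.71 with the motif and 9.66, 6.32, 6.53 and 8.16 without, higher with it in every library. In the share with a peak, ETS did not stand alone. The 49 pairs with an NRF1 motif carried H3K9ac in 98%, against 91.6% to 92.2% of pairs without it. The 81 pairs with an E-box carried H3K9ac in 96.3%, against 91.5% to 92.1%. Both were also higher for H3K4me3 in every library. With a TATA motif H3K9ac was more frequent and H3K4me3 less so, and CCAAT showed no excess. These shares are a description, since the ETS motif also goes with CpG content.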

How the data were processed

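The 16 ChIP-seq libraries were analysed from the deposited peak lists. Per the labels, BWA served for alignment, mm10 as the genome and MACS2 for peak calling. Each of the authors' lists gives, per peak, the fold enrichment over background as a ratio, and the −log10 p-value and −log10 q-value. Peaks down to a p-value of 0.01 are listed. No list holds read counts, so the depth is unknown. The labels also name input libraries, which were not used here. A replicate each of H3K27ac and H3K4me1 was set aside in the study, which does not say which. Here only replicate 2 was kept.

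Pairs and other promoters were taken from GENCODE M21, with positions counted from 1. A region carried a mark when a peak overlapped it by at least 1 bp. Libraries were compared with exact two-sided permutation or sign-flip tests. Peak strength was tested with limma 3.58.1 in R 4.3.3, with Benjamini-Hochberg adjustment, on log2 of the largest fold enrichment in a region, centred on the library median, for regions with a peak in all 4 libraries. No pseudocount was needed. Wilson intervals (95%) treat regions as independent and cover counting error only. CpG content and motifs were read from GRCm38. The code was tested on simulated data.

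Pairs were named when they were textbook examples, were lost or gained, had the smallest limma p, were strongest in a gene list or among all pairs, or had no H3K4me3 in a gene list, and other names are marked where they occur. The members and lists were chosen with earlier results of these data known. Groups came from the labels, and the values that another choice moved or reversed are given at the end. Some pairs are not reported here by name.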

Additional observations from a re-analysis of the deposited data

Results flagged for a closer look

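The replicate 1 libraries of H3K27ac and H3K4me1 enter no comparison above, and some of them held peaks at the pairs. WT H3K27ac replicate 1 had a peak at 21.4% of pairs (161 of 754), against 7.37% of other promoters, with a median peak width of 63 bp at pairs where replicate 2 had 732 bp. Of its 26791 peaks 13 had a q-value of at most 0.05. WT H3K4me1 replicate 1 had a peak at 0.53% of pairs (4 of 754) and at 0.489% of other promoters. KO H3K27ac replicate 1 had a peak at 1 pair and KO H3K4me1 replicate 1 at 0 of 754.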

How the results depend on the processing

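Of 150 recomputed values, 113 counted as unchanged, 32 as moved and 5 as reversed. Share differences in H3K4me3 and H3K9ac counted as unchanged unless their sign turned, whatever their size. Those in H3K27ac and H3K4me1 had to stay within their counting error. Counts of switching pairs had to stay the same, single-peak shares had to move by less than their SD, and limma had to call no pair. The excess of the pairs over other promoters in H3K4me3 and H3K9ac kept its direction under every alternative. Its size did not, as all pairs against CpG-rich other promoters gave 9.5 points for H3K4me3 and 13.2 for H3K9ac. The KO against WT difference in the share of pairs has no stable sign. For H3K9ac it was 0.199 points with equal numbers of peaks per library and 0.199 with the summit inside the region. Leaving out a replicate gave -0.53 to 0.27 points for H3K9ac and -1.99 to 3.05 for H3K4me3. The H3K27ac difference was -7.83 points with both replicates, and the H3K4me1 difference 10.9.

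Counts of switching pairs stayed small. H3K4me3 pairs gained were 3 with a q-value of at most 0.01 and with equal lists, 2 with an overlap of at least 200 bp, 6 by summit and 0 over the midpoint ± 500 bp, and 4 were lost by summit. H3K9ac pairs lost were 0 with q-values of at most 0.05 or 0.01 and with equal lists, 4 by summit and 2 over the midpoint ± 500 bp. H3K9ac pairs gained were 0 with a q-value of at most 0.01, 0 with an overlap of at least 200 bp and 3 by summit.

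The H3K4me1 difference between genotypes was 10.6 points with equal lists, 13.1 with an overlap of at least 200 bp, 10.1 by summit and 18 over the midpoint ± 500 bp. The mean H3K4me1 excess over other promoters, 5.31 points, was 2.92 with a q-value of at most 0.01, 3.17 with equal lists, 0.41 with an overlap of at least 200 bp, 0.94 by summit, 0.801 over the midpoint ± 500 bp, 0.62 against CpG-rich other promoters and 2.87 against those with a non-coding partner. The mean H3K27ac excess, 48.5 points, was 17.6 against CpG-rich other promoters and 23.9 against those with a non-coding partner. After the data had been seen, pairs with crossed TSS were counted as pairs, which gave an H3K4me1 excess of 8.35 points, or left out of the other promoters, which gave an H3K27ac excess of 50.5. Joining peaks less than 200 bp apart raised the mean share with 1 peak over both TSS from 46.6% to 65.4% for H3K4me3 and from 69% to 84.1% for H3K9ac. The causes were not tested, apart from what each alternative changes by construction.

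The replicate numbers were not taken as pairing the samples: deviations of same-numbered libraries correlated at -0.01 for H3K4me3 and 0.14 for H3K9ac. With a replicate block the differences in the share of pairs stayed at 0.53 and -0.13 points (exact p = 1 for each), and limma called 0 pairs for both marks, as it did without the block. Limma called 0 pairs under every other alternative too, those without 1 library included. Over all regions up to 4 were called for H3K9ac, all lower in KO, without centring. The unknown depth limits all of this: a missing peak is not a missing mark.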
